A study of Mus musculus with 2 samples.

Results

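The genes described here encode the machinery that moves new proteins into the endoplasmic reticulum (ER), processes and folds them there, senses folding stress and disposes of misfolded protein. They were chosen by name from knowledge of the pathway and number 45 of the 41214 genes in the deposited table. Each name matched a single row, and all 45 reached 100 normalized reads in the higher of the 2 libraries, the floor used throughout, as did 10443 genes in all. A normalized read is a read count divided by the authors' size factor for that library. The libraries were made from splenic germinal centre B cells, the B cells that divide, mutate their antibody genes and undergo selection after immunization. They came from C57BL/6 mice given sheep red blood cells intravenously. Spleens were taken on day 10, and the sort kept B220+Fas+GL7+ cells that lacked CD138, a plasma cell protein. A single library was labelled Cbl-/-Cblb-/- (both of these E3 ubiquitin ligase genes deleted) and a single one wild type. The study set out to compare RNA levels between these genotypes. Which exons the alleles lack, and how many mice went into a library, is not stated in the labels.

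Proteins bound for the surface or for secretion carry a signal sequence, which the signal recognition particle binds as it leaves the ribosome. The particle docks the ribosome on the ER membrane, where the chain passes through the Sec61 channel. Signal peptidase removes the signal sequence and oligosaccharyltransferase attaches sugar chains. Chaperones and disulfide isomerases fold the chain, and chains that fail to fold are returned to the cytosol and degraded. Sensors in the membrane, among them IRE1 and ATF6, adjust this capacity in the unfolded protein response. In the B lineage the pathway is known for its growth during differentiation into plasma cells, which secrete antibody.

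The Cbl-/-Cblb-/- labelled library had 38223328 gene reads in all and the wild type labelled library 26749540. With 1 library per label no difference has a replicate check and none was tested, so the values below describe these 2 libraries. Fewer cells of a type and less RNA per cell cannot be told apart in such bulk samples. The targeted genes went against the labels: Cbl had 1183 normalized reads in the Cbl-/-Cblb-/- labelled library and 169 in the wild type labelled library, and Cblb had 2839 in the Cbl-/-Cblb-/- labelled library and 1001 in the wild type labelled library. Counts per gene cannot separate exons inside and outside a deleted part, and directions are given between labelled libraries only. All 8 germinal centre B cell markers were over the floor. Of these 1, Bcl6, was higher by 1.5-fold or more and 0 were lower. The 8 summed to 58330 normalized reads in the Cbl-/-Cblb-/- labelled library and 57218 in the wild type labelled library. The 5 pan B cell markers, 1 higher and 3 lower, summed to 194401 and 344571 in the Cbl-/-Cblb-/- and wild type labelled libraries. The 5 T cell markers summed to 24 and 40 normalized reads in the Cbl-/-Cblb-/- and wild type labelled libraries, with Cd3e at 0 in the wild type labelled library. The 9 macrophage markers, none at 0, summed to 1542 and 1816 in the Cbl-/-Cblb-/- and wild type labelled libraries. Of the 6 over the floor 2 were higher and 3 lower by 1.5-fold or more. The 5 erythroid markers summed to 59 and 660 in the Cbl-/-Cblb-/- and wild type labelled libraries, and the 4 hepatocyte markers to 1 and 4. The 10 plasma cell markers summed to 44424 normalized reads in the Cbl-/-Cblb-/- labelled library and 49952 in the wild type labelled library. None of them was at 0, and of the 9 over the floor 4 were higher and 2 lower by 1.5-fold or more. The defining marker Sdc1, which encodes CD138, had 130 and 95.9 normalized reads in the Cbl-/-Cblb-/- and wild type labelled libraries, and its part in the results below was not tested.

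Of the 45 genes, 12 (26.7%) were higher in the Cbl-/-Cblb-/- labelled library than in the wild type labelled library by 1.5-fold or more, and 19 (42.2%) were lower by as much. Among all 10443 genes over the floor 38.6% were higher and 31.9% lower by the same rule. At 2-fold, 6 of the 45 were higher and 11 lower, beside 27.8% and 23.3% of all genes. The median log2 ratio of the 45 was -0.32, with quartiles of -0.91 and 0.64, and that of all genes was 0.15. Log2 ratios are of the value in the Cbl-/-Cblb-/- labelled library plus 1 over that in the wild type labelled library plus 1. Scaling to total reads raised the median of all genes by 0.55, and the 45 then lay 0.50 under it, against 0.47 under it as deposited. That scaling put 17 of the 45 at least 1.5-fold higher and 8 lower, beside 53.0% and 20.4% of all genes. No gene of the 45 that passed 1.5-fold changed sign under the scaling alternatives. Together the 45 genes took 0.657% of reads in the Cbl-/-Cblb-/- labelled library (Wilson 95% interval 0.655 to 0.660) and 0.488% in the wild type labelled library (0.485 to 0.491). After normalization their sums were 175655 and 186799 in the Cbl-/-Cblb-/- and wild type labelled libraries. For 16 of the 45, exons of another annotated gene overlap, and since no source used here gives the strand mode of counting, part of their reads is uncertain in origin. The authors' deposited comparison sets the same single libraries against each other, and its p-values are not read here.

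**Figure D1:**
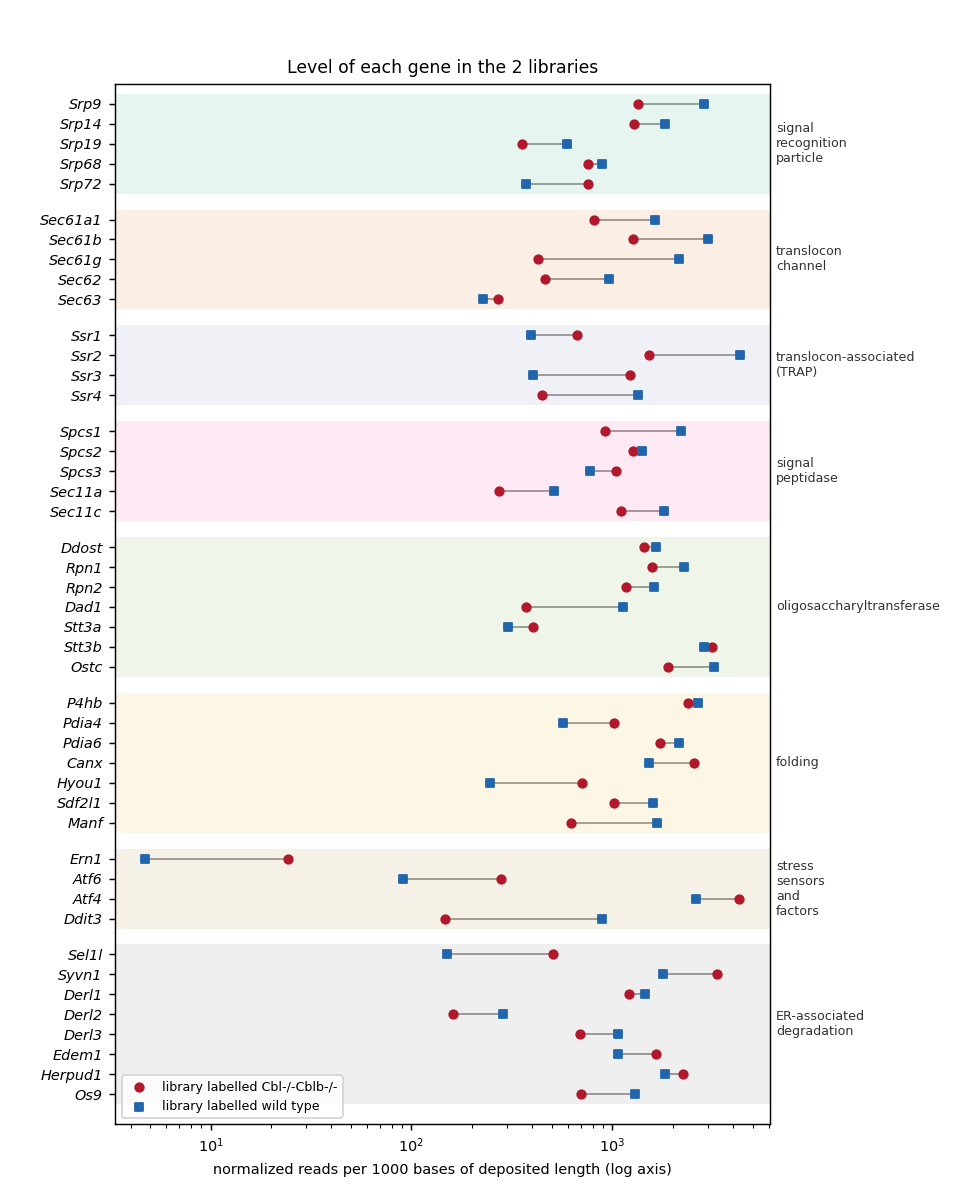
Level of each of the 45 genes in normalized reads per 1000 bases of deposited gene length (log axis), as a circle for the Cbl-/-Cblb-/- labelled library and a square for the wild type labelled library, in bands by role. The genes of the translocon channel lie to the left in the Cbl-/-Cblb-/- labelled library except Sec63, and Ern1 is the lowest gene in both libraries.

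Levels per 1000 bases of deposited length spanned a wide range. In the Cbl-/-Cblb-/- labelled library the highest were Atf4 with 4285 normalized reads per 1000 bases, Syvn1 with 3313 and Stt3b with 3121. In the wild type labelled library they were Ssr2 with 4319, Ostc with 3197 and Sec61b with 3011. The lowest gene in both was Ern1, with 24.4 in the Cbl-/-Cblb-/- labelled library and 4.73 in the wild type labelled library. Across the 45 genes the log2 levels per length of the 2 libraries had a Pearson correlation of 0.77, and across all genes of 0.81. These points share their gene lengths, and genes are not independent replicates.

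Between these libraries the ratio of a gene follows its length, so each gene is also given with an adjusted log2 ratio. It is what remains after a quadratic fit of the log2 ratio on log2 deposited length over all genes, which took up 23.7% of the variance. Genes over the floor were split by length into 4 equal classes. In the shortest class (36 to 2185 bases) 67.2% of all genes were lower by 1.5-fold or more in the Cbl-/-Cblb-/- labelled library, as were 8 of the 11 genes described here. In the longest class (5681 to 84395 bases) 68.7% of all genes were at least 1.5-fold higher, as were 7 of 11. In classes 2 and 3, counted from the shortest, 1 of 13 and 3 of 10 of the genes described here were higher, where 26.5% and 45.5% of all genes were. In those classes 5 of 13 and 4 of 10 were lower, beside 33.6% and 18.8% of all genes. In the shortest class the genes described here had a median of -0.75, above the -1.24 of all genes there. Their median in class 2 was -0.25 against -0.12. In class 3 it was -0.40 against 0.46, and in the longest class 0.77 against 1.11. For several of these genes the deposited length is far longer than the principal transcript. Ssr4 is listed with 3096 bases, whereas its principal transcript in the GENCODE annotation has 765, and Srp19 with 3630 against 876. Across the 45 genes the log2 ratio had a Spearman correlation of 0.51 with deposited length, 0.64 with principal transcript length and 0.72 with coding length. Across all genes over the floor these were 0.54, 0.61 and 0.50. After adjustment for deposited length 7 of the 45 were at least 1.5-fold higher and 17 lower, where 28.7% and 33.5% of all genes were.

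**Figure D2:**
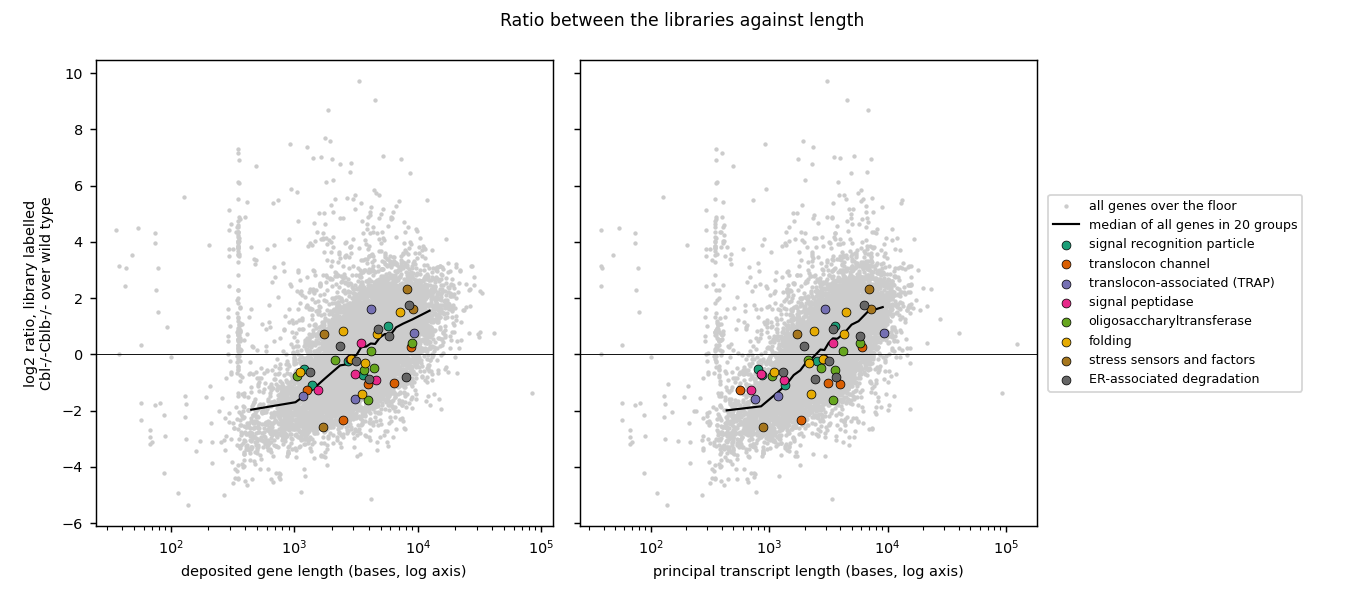
Log2 ratio of the Cbl-/-Cblb-/- labelled library over the wild type labelled library against deposited gene length (left) and principal transcript length (right), both on log axes, with all genes over the floor in grey, the genes described here coloured by role, and a line through the medians of all genes in 20 groups of about equal size. Ratios increase with length in both panels, and Ddit3, Sec61g and Dad1 (log2 ratios of -2.58, -2.32 and -1.61) lie under the line.

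The translocon channel was the group with the lowest ratios. Of its 5 genes 4 were lower by 2-fold or more in the Cbl-/-Cblb-/- labelled library, beside 23.3% of all genes. The median log2 ratio of the group was -1.05 (adjusted -1.23). Sec61g, which encodes the small gamma subunit of the channel (ENSMUSG00000078974, GRCm38 chromosome 11, 16500530 to 16508484, minus strand), had 1056 normalized reads from 1511 reads in the Cbl-/-Cblb-/- labelled library. In the wild type labelled library it had 5271 from 3684 reads. That was 4.99-fold lower (4.70 to 5.30), and the adjusted log2 ratio was -2.02. Intervals beside folds are exact 95% intervals of a ratio of reads and cover counting error only. The beta subunit gene Sec61b, also small, had 1608 normalized reads from 2301 reads in the Cbl-/-Cblb-/- labelled library and 3827 from 2675 in the wild type labelled library. It was 2.38-fold lower (2.25 to 2.52), with an adjusted log2 ratio of -0.45. Sec61a1, which encodes the pore itself, had 5188 normalized reads in the Cbl-/-Cblb-/- labelled library and 10478 in the wild type labelled library, 2.02-fold lower (1.96 to 2.09). Since its deposited length is 6407 bases, its log2 ratio of -1.01 became -1.77 after adjustment. With its principal transcript length of 3172 bases the adjusted value was -1.25. Sec62 and Sec63 encode membrane partners of the channel that assist passage of the chain. Sec62 had 1837 normalized reads from 2628 reads in the Cbl-/-Cblb-/- labelled library and 3804 from 2659 in the wild type labelled library, 2.07-fold lower (1.96 to 2.19, adjusted log2 ratio -1.23). Sec63, a long gene of 8787 bases, had 2379 and 1990 normalized reads in the Cbl-/-Cblb-/- and wild type labelled libraries, a log2 ratio of 0.26 that was -0.93 after adjustment. After adjustment for deposited length all 5 channel genes were below 0, while Sec61b was at 0.04 with principal transcript length. The sum over the group was 12069 normalized reads in the Cbl-/-Cblb-/- labelled library against 25370 in the wild type labelled library. Scaled to total reads the group had 2 genes at least 1.5-fold lower and 1 higher, beside 20.4% and 53.0% of all genes. Exons of another gene overlap Sec61a1, Sec62 and Sec63.

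**Figure D3:**
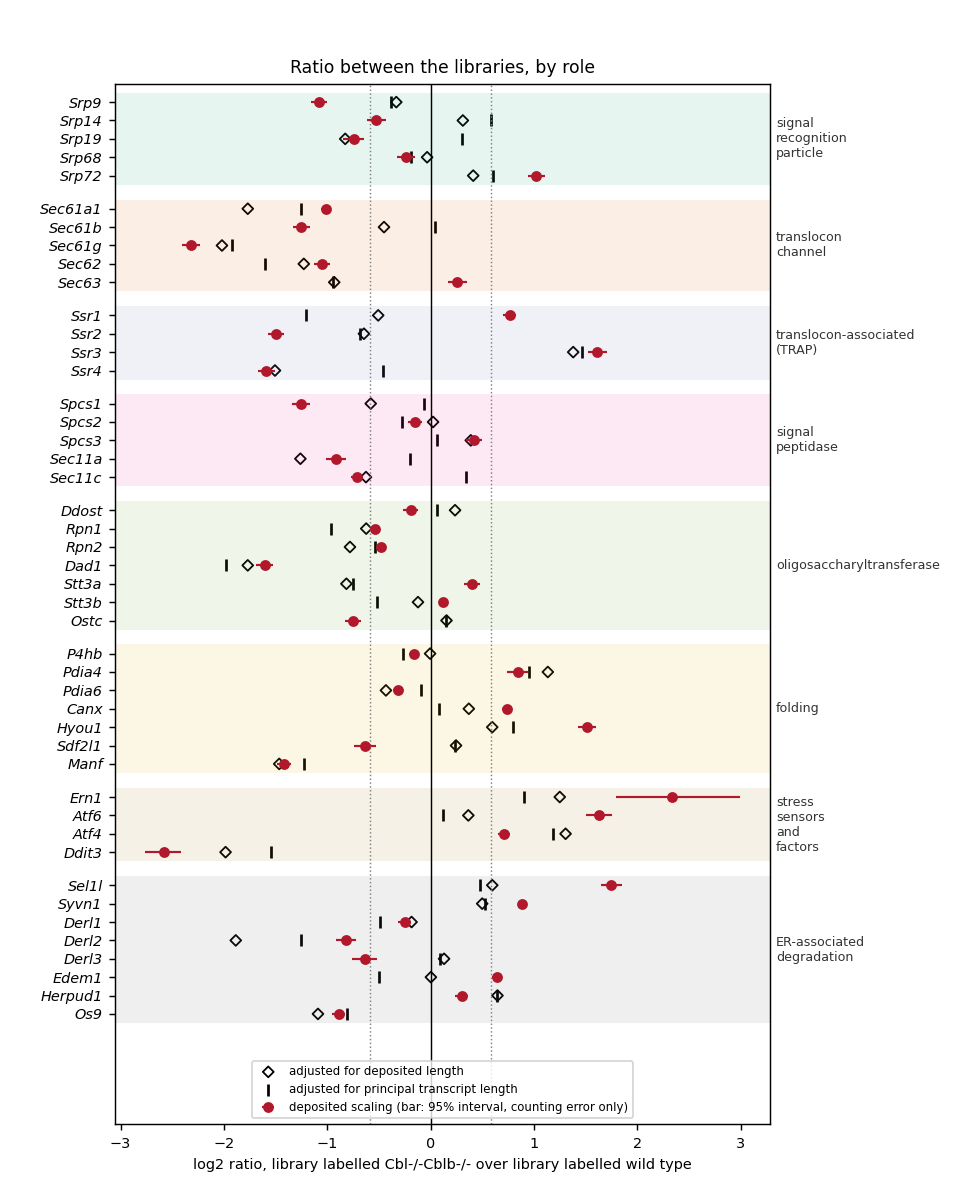
Log2 ratio of the Cbl-/-Cblb-/- labelled library over the wild type labelled library for each of the 45 genes, as a filled circle with its exact 95% interval (counting error only), an open diamond after adjustment for deposited length and a vertical tick after adjustment for principal transcript length; dotted lines mark 1.5-fold. The 4 genes Sec61a1, Sec61b, Sec61g and Sec62 lie left of the lower dotted line by their circles, while the TRAP genes lie on both sides.

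The translocon-associated protein complex (TRAP), which sits beside the channel and helps some chains to enter, was split. Its subunit genes had log2 ratios of 0.77 (Ssr1), -1.50 (Ssr2), 1.61 (Ssr3) and -1.59 (Ssr4), a range of 3.20. Ssr3, the gamma subunit gene (chromosome 3, 65379655 to 65392623, minus strand), had 5142 normalized reads from 7357 reads in the Cbl-/-Cblb-/- labelled library and 1680 from 1174 in the wild type labelled library. It was 3.06-fold higher (2.88 to 3.26), and with an adjusted log2 ratio of 1.38 it had the highest adjusted value of the 45 genes. Ssr4, the delta subunit gene (chromosome X, 73787028 to 73790830, plus strand), had 1390 normalized reads from 1988 reads in the Cbl-/-Cblb-/- labelled library and 4182 from 2923 in the wild type labelled library. It was 3.01-fold lower (2.84 to 3.19), with an adjusted log2 ratio of -1.51 that was -0.46 when its principal transcript length was used. Ssr2, the beta subunit gene, had 1787 normalized reads from 2557 reads in the Cbl-/-Cblb-/- labelled library and 5040 from 3523 in the wild type labelled library, 2.82-fold lower (2.68 to 2.97, adjusted log2 ratio -0.64). Ssr1, the alpha subunit gene and at 9306 bases the longest of the 45, had 6217 and 3654 normalized reads in the Cbl-/-Cblb-/- and wild type labelled libraries. Its adjusted value of -0.51 had the opposite sign. Summed over the complex the values were close, with 14537 normalized reads in the Cbl-/-Cblb-/- labelled library and 14556 in the wild type labelled library. The range over the subunits was 2.89 after adjustment for deposited length and 2.67 for principal transcript length.

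For the signal recognition particle 1 of 5 protein genes was at least 1.5-fold higher and 2 were lower in the Cbl-/-Cblb-/- labelled library. Among all genes 38.6% were higher and 31.9% lower. The median log2 ratio of the 5 was -0.52 (adjusted -0.03). Scaled to total reads 1 was higher and 0 lower, beside 53.0% and 20.4% of all genes, and the median of the 5 was -0.0058. Srp72, which with Srp68 forms the largest protein part of the particle, had 4314 normalized reads from 6172 reads in the Cbl-/-Cblb-/- labelled library and 2125 from 1485 in the wild type labelled library. It was 2.03-fold higher (1.92 to 2.15), with an adjusted log2 ratio of 0.41. Its partner Srp68 had 2068 and 2435 normalized reads in the Cbl-/-Cblb-/- and wild type labelled libraries, a log2 ratio of -0.24 (adjusted -0.03). Srp9 and Srp14 encode the pair that slows translation while the ribosome docks. Srp9 had 1863 normalized reads from 2665 reads in the Cbl-/-Cblb-/- labelled library and 3937 from 2752 in the wild type labelled library, a ratio of 0.473 (0.448 to 0.499, adjusted log2 ratio -0.33). Srp14 had 1528 and 2198 normalized reads in the Cbl-/-Cblb-/- and wild type labelled libraries, a log2 ratio of -0.52 (adjusted 0.31). Srp19, whose product binds the particle's RNA, had 1291 normalized reads from 1847 reads in the Cbl-/-Cblb-/- labelled library and 2165 from 1513 in the wild type labelled library, 1.68-fold lower (1.57 to 1.80, adjusted log2 ratio -0.83). The spread of the 5 ratios was 2.10 as deposited, 1.24 after adjustment for deposited length and 0.98 for principal transcript length.

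Signal peptidase genes had ratios between -1.25 and 0.42. Of 5 genes 3 were lower by 1.5-fold or more in the Cbl-/-Cblb-/- labelled library and 0 higher, beside 31.9% and 38.6% of all genes. The median log2 ratio of the group was -0.71 (adjusted -0.58, and -0.07 with principal transcript length). Scaled to total reads 1 was higher and 1 lower, beside 53.0% and 20.4% of all genes. With principal transcript length none of the 5 passed 1.5-fold, where 26.9% of all genes were higher and 31.8% lower. Spcs1, an accessory subunit gene, had 1424 normalized reads from 2037 reads in the Cbl-/-Cblb-/- labelled library and 3388 from 2368 in the wild type labelled library, 2.38-fold lower (2.24 to 2.53, adjusted log2 ratio -0.58). The other accessory subunit genes, Spcs2 and Spcs3, had log2 ratios of -0.15 and 0.42 (adjusted 0.02 and 0.39). Spcs2 had 3584 and 3982 normalized reads in the Cbl-/-Cblb-/- and wild type labelled libraries, and Spcs3 had 3610 and 2695 in the Cbl-/-Cblb-/- and wild type labelled libraries. Sec11a and Sec11c encode alternative catalytic subunits that cut the signal sequence. Sec11a had 1254 normalized reads from 1794 reads in the Cbl-/-Cblb-/- labelled library and 2359 from 1649 in the wild type labelled library, 1.88-fold lower (1.76 to 2.01, adjusted log2 ratio -1.26). Sec11c had 3400 from 4864 reads and 5570 from 3893 reads in the Cbl-/-Cblb-/- and wild type labelled libraries, 1.64-fold lower (1.57 to 1.71, adjusted log2 ratio -0.63). Sec11c was the more abundant form in both, with 73.1% of the reads of this pair in the Cbl-/-Cblb-/- labelled library (exact 95% interval 72.0 to 74.1) and 70.2% in the wild type labelled library (69.0 to 71.4). Exons of other genes overlap Spcs1, Spcs3 and Sec11a, and the table lists a pseudogene named for Spcs2, so their counts are uncertain.

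The 7 oligosaccharyltransferase genes among the 45 differed by less than 1.5-fold as deposited, except for the small subunit genes Dad1 and Ostc. Further subunit genes of the enzyme are among the other pathway genes below and were named here after their values were seen. Krtcap2, Tmem258 and Ost4 had log2 ratios of -2.34, -1.95 and -1.49 (adjusted -1.66, -1.31 and -0.69). Tusc3 and Magt1 stood at 0.41 and 0.06 (adjusted 1.09 and -0.31). None of the 7 was at least 1.5-fold higher in the Cbl-/-Cblb-/- labelled library and 2 were lower, beside 38.6% and 31.9% of all genes. The median log2 ratio of the 7 was -0.48 (adjusted -0.62). Scaled to total reads 2 were higher and 1 lower, beside 53.0% and 20.4% of all genes, and the median of the 7 was 0.04. After adjustment for deposited length 0 were higher and 4 lower, beside 28.7% and 33.5% of all genes. Dad1, a small subunit gene first known as a defender against cell death (chromosome 14, 54235479 to 54254104, minus strand), had 1450 normalized reads from 2075 reads in the Cbl-/-Cblb-/- labelled library and 4418 from 3088 in the wild type labelled library. It was 3.05-fold lower (2.88 to 3.22), with adjusted log2 ratios of -1.77 by deposited length and -1.98 by principal transcript length. Ostc, the subunit gene that ties the enzyme to the channel, had 2010 normalized reads from 2875 reads in the Cbl-/-Cblb-/- labelled library and 3382 from 2364 in the wild type labelled library, 1.68-fold lower (1.59 to 1.78). At 1058 bases it is the shortest of the 45 genes, and its adjusted log2 ratio was 0.15, on the other side of 0. Rpn1 had 5713 normalized reads from 8174 reads in the Cbl-/-Cblb-/- labelled library and 8298 from 5800 in the wild type labelled library, a ratio of 0.689 (0.666 to 0.712, adjusted log2 ratio -0.62). Rpn2 stood at -0.48 (adjusted -0.78) and Ddost at -0.19 (adjusted 0.24), and these 3 encode large non-catalytic subunits. The catalytic subunit genes Stt3a, whose enzyme works with the channel, and Stt3b, whose enzyme also acts on sites that the first has missed, had log2 ratios of 0.40 and 0.12 (adjusted -0.81 and -0.12). Stt3b had 13093 normalized reads in the Cbl-/-Cblb-/- labelled library and 12066 in the wild type labelled library, and Stt3a had 3597 and 2723 in the Cbl-/-Cblb-/- and wild type labelled libraries. Stt3b took 78.4% of the reads of this pair in the Cbl-/-Cblb-/- labelled library (77.9 to 79.0) and 81.6% in the wild type labelled library (80.8 to 82.3). Per 1000 bases its share was 88.6% and 90.4% in the Cbl-/-Cblb-/- and wild type labelled libraries.

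Chaperone and disulfide isomerase genes went in both directions, with 3 of 7 at least 1.5-fold higher in the Cbl-/-Cblb-/- labelled library and 2 lower. Among all genes 38.6% were higher and 31.9% lower. The median log2 ratio of the 7 was -0.16 as deposited and 0.25 after adjustment. When scaled to total reads it was 0.35, with 3 higher and 1 lower, beside 53.0% and 20.4% of all genes. Hyou1, the large ER chaperone of the Hsp70 class (chromosome 9, 44379490 to 44392369, plus strand), had 5094 normalized reads from 7288 reads in the Cbl-/-Cblb-/- labelled library and 1784 from 1247 in the wild type labelled library. It was 2.86-fold higher (2.69 to 3.03), with an adjusted log2 ratio of 0.60. Pdia4, a disulfide isomerase gene, had 2537 normalized reads from 3629 reads in the Cbl-/-Cblb-/- labelled library and 1415 from 989 in the wild type labelled library, 1.79-fold higher (1.67 to 1.93, adjusted log2 ratio 1.13). Canx, which encodes the lectin chaperone calnexin, was also higher, with 11944 and 7156 normalized reads in the Cbl-/-Cblb-/- and wild type labelled libraries (log2 ratio 0.74, adjusted 0.37). The isomerase genes P4hb and Pdia6 stood near equality at -0.16 and -0.32 (adjusted -0.0046 and -0.43). Manf, a secreted factor retained in the ER and induced by ER stress (chromosome 9, 106838312 to 106891979, minus strand), had 2207 normalized reads from 3158 reads in the Cbl-/-Cblb-/- labelled library and 5889 from 4116 in the wild type labelled library. It was 2.67-fold lower (2.55 to 2.80, adjusted log2 ratio -1.46), and exons of Dcaf1 and Rbm15b overlap it. Sdf2l1, which works with the chaperone BiP, had 1135 and 1761 normalized reads in the Cbl-/-Cblb-/- and wild type labelled libraries. At 1108 bases it is short, and its log2 ratio of -0.63 became 0.25 after adjustment.

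Sensors and transcription factors of ER stress had the widest spread, from -2.58 to 2.34. Ern1, which encodes the sensor IRE1 (chromosome 11, 106394650 to 106487852, minus strand), was low in both libraries, with 199 normalized reads from 285 reads in the Cbl-/-Cblb-/- labelled library and 38.6 from 27 in the wild type labelled library. It was 5.16-fold higher, with a wide interval of 3.47 to 7.96, and its adjusted log2 ratio was 1.25. Atf6, a membrane-bound factor that is cut free under stress, had 2592 normalized reads from 3708 reads in the Cbl-/-Cblb-/- labelled library and 838 from 586 in the wild type labelled library. It was 3.09-fold higher (2.83 to 3.38), and as a gene of 9231 bases it had an adjusted log2 ratio of 0.37. Atf4, the factor translated when the kinase PERK halts general initiation (chromosome 15, 80255184 to 80257541, plus strand), had 7387 normalized reads from 10568 reads in the Cbl-/-Cblb-/- labelled library and 4502 from 3147 in the wild type labelled library. It was 1.64-fold higher (1.58 to 1.71), where the median of all genes in the shortest class was -1.24, and its adjusted log2 ratio was 1.31. Ddit3, which encodes the death-promoting factor CHOP and is a known target of ATF4 (chromosome 10, 127290774 to 127296288, plus strand), had 253 normalized reads from 362 reads in the Cbl-/-Cblb-/- labelled library and 1519 from 1062 in the wild type labelled library. It was 6.00-fold lower (5.32 to 6.78), the lowest ratio of the 45, with an adjusted log2 ratio of -1.98. Atf4 and Ddit3 have deposited lengths of 1724 and 1713 bases but principal transcripts of 1725 and 890 bases. Exons of Mars and Gm4189 and of a further model also named Ddit3 overlap the Ddit3 exons, so its reads are uncertain in origin.

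Genes of ER-associated degradation summed to 44008 normalized reads in the Cbl-/-Cblb-/- labelled library and 33857 in the wild type labelled library over 8 genes. Of these 3 were at least 1.5-fold higher and 3 lower, beside 38.6% and 31.9% of all genes. The median log2 ratio of the 8 was 0.02 (adjusted 0.07). Scaled to total reads 4 were higher and 0 lower, beside 53.0% and 20.4% of all genes, and the median of the 8 was 0.54. The core ubiquitin ligase consists of Syvn1, also called HRD1, and its scaffold Sel1l, and both genes were higher as deposited. Neither stayed at least 1.5-fold higher after each of the 3 length adjustments described below. Sel1l (chromosome 12, 91806043 to 91849157, minus strand) had 4339 normalized reads from 6207 reads in the Cbl-/-Cblb-/- labelled library and 1290 from 902 in the wild type labelled library, 3.36-fold higher (3.13 to 3.61, adjusted log2 ratio 0.60). Syvn1 had 15809 normalized reads from 22618 reads in the Cbl-/-Cblb-/- labelled library and 8542 from 5971 in the wild type labelled library, 1.85-fold higher (1.80 to 1.90, adjusted log2 ratio 0.50). Lectins hand glycoproteins to this ligase. Os9 had 2825 normalized reads from 4041 reads in the Cbl-/-Cblb-/- labelled library and 5235 from 3659 in the wild type labelled library, 1.85-fold lower (1.77 to 1.94, adjusted log2 ratio -1.09). Edem1, a mannosidase-like protein gene, had 9723 and 6226 normalized reads in the Cbl-/-Cblb-/- and wild type labelled libraries, a log2 ratio of 0.64 that was 0.0032 after adjustment. Herpud1, a stress-induced partner of the ligase, stood at 0.30 (adjusted 0.65). Derlins are membrane proteins of the exit route. Derl1 was near equality with 3826 and 4554 normalized reads in the Cbl-/-Cblb-/- and wild type labelled libraries, with a log2 ratio of -0.25. Derl2 had 1301 and 2299 normalized reads in the Cbl-/-Cblb-/- and wild type labelled libraries (log2 ratio -0.82, adjusted -1.89). Derl3 had 922 and 1435 in the Cbl-/-Cblb-/- and wild type labelled libraries (log2 ratio -0.64, adjusted 0.13). Derl1 made up 63.2% of derlin reads in the Cbl-/-Cblb-/- labelled library (62.2 to 64.3) and 54.9% in the wild type labelled library (53.7 to 56.2). Exons of Mis12 overlap Derl2 and those of Mrpl49 overlap Syvn1.

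Promoters of stress-induced genes in this pathway can carry the ER stress response element (ERSE), a CCAAT box and a CCACG box a fixed distance apart, so both strands of RefSeq promoters (GRCm38.p6) were searched. The windows run from 250 bases before the start to 50 after it, and 34 of the 45 genes matched an entry. ERSE, searched as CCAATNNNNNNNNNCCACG, was in 4 of these 34 genes (11.8%). It was in 0.137% of all 27025 genes with an entry and in 0.119% of their 32851 promoter windows. ERSE-II, searched as ATTGGNCCACG, was in Herpud1 alone of the 34 and in 0.0444% of all genes with an entry (0.0365% of windows). The stretches that hold these elements are printed because the genes concerned differ in direction between the libraries, with the matched element in capitals and each sequence 5′ to 3′ on the strand of its gene. They are Canx at chr11:50325780-50325838 (minus strand), Derl3 at chr10:75893222-75893280 (plus), Pdia6 at chr12:17266471-17266529 (plus), Syvn1 at chr19:6046512-6046570 (plus) and Herpud1 at chr8:94386357-94386407 (plus).
Canx: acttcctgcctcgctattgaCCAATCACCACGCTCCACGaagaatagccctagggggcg
Derl3: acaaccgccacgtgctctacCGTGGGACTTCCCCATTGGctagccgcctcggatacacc
Pdia6: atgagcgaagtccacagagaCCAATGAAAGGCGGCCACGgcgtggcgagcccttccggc
Syvn1: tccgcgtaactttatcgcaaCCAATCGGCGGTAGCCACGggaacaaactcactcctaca
Herpud1: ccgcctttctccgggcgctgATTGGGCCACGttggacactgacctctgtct
In Derl3 the element lies on the opposite strand, so its capitals read as the reverse complement. By the 1.5-fold rule Syvn1 (0.89) and Canx (0.74) were higher in the Cbl-/-Cblb-/- labelled library, Derl3 (-0.64) was lower, and Herpud1 (0.30) and Pdia6 (-0.32) were neither. After adjustment for deposited length Herpud1 (0.65) alone of the 5 passed 1.5-fold. The unfolded protein response element (UPRE), searched as TGACGTG followed by G or A, was in 0 of the 34. It was in 1.22% of all genes with an entry (1.12% of windows). An element bound by C/EBP and ATF factors, searched as TGATGNAA, was in Herpud1 alone of the 34. Of all genes with an entry 4.51% held it (3.97% of windows). In Herpud1 it did not overlap the ERSE-II match. Of the other pathway genes described next, 46 matched an entry. ERSE was in 5 of these 46, ERSE-II in 2, UPRE in 6, Hspa5 among them, and the C/EBP and ATF element in 4. Log2 ratios of the 5 with ERSE were on both sides of 0. Hspa5 (0.54), Hsp90b1 (0.60) and Dnajc3 (0.44) had ratios above 0, and Calr (-1.20) and Creld2 (-0.91) were lower. A match is a description of these letters and not of a bound site.

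Other genes of the pathway, from a list of 60 names that found 59 genes, also went in both directions. Of the 55 over the floor, 14 (25.5%) were at least 1.5-fold higher in the Cbl-/-Cblb-/- labelled library and 15 (27.3%) lower. Among all genes 38.6% were higher and 31.9% lower. The median log2 ratio of the 55 was 0.06. After adjustment for deposited length 12 of the 55 were higher and 15 lower, beside 28.7% and 33.5% of all genes. When scaled to total reads 27 (49.1%) were higher and 12 (21.8%) lower, beside 53.0% and 20.4% of all genes. The highest was Edem3, a mannosidase gene of glycoprotein degradation, with 2373 normalized reads in the Cbl-/-Cblb-/- labelled library and 212 in the wild type labelled library, 11.2-fold higher (9.50 to 13.3). Next were Mbtps2, a protease gene that helps to release ATF6 (4.56-fold, 3.81 to 5.50), Eif2ak3, which encodes PERK (3.57-fold, 3.35 to 3.80), and Ppp1r15b, a phosphatase subunit gene that reverses PERK signalling (3.47-fold, 3.30 to 3.66). All of these had adjusted log2 ratios above 0, from 0.79 for Mbtps2 to 2.73 for Edem3. The lowest were the prolyl isomerase genes Fkbp2 (7.25-fold lower, 6.73 to 7.82) and Ppib (6.11-fold lower, 5.93 to 6.30), then Nucb2 (6.08-fold lower, 5.13 to 7.25) and Fkbp11 (5.67-fold lower, 3.82 to 8.61), with adjusted values from -2.24 for Nucb2 to -1.38 for Fkbp11. Fkbp2, Ppib and Fkbp11 are short, with deposited lengths of 663, 960 and 731 bases, and exons of Snx22 overlap Ppib. Fkbp11 reached the floor only in the wild type labelled library, with 139 normalized reads against 24.5 in the Cbl-/-Cblb-/- labelled library. Hspa5, which encodes the chaperone BiP, had 17844 normalized reads in the Cbl-/-Cblb-/- labelled library and 12302 in the wild type labelled library (log2 ratio 0.54, adjusted 0.49). Hsp90b1 had 13608 and 8967 normalized reads in the Cbl-/-Cblb-/- and wild type labelled libraries (log2 ratio 0.60, adjusted 0.41). Calr, which encodes the chaperone calreticulin and was chosen after its values were seen, had 16314 and 37545 normalized reads in the Cbl-/-Cblb-/- and wild type labelled libraries, 2.30-fold lower (2.26 to 2.34, adjusted log2 ratio -1.05). Xbp1, the factor activated by IRE1, had 4798 and 4308 in the Cbl-/-Cblb-/- and wild type labelled libraries (log2 ratio 0.16, adjusted 0.19), where the table does not separate its spliced form.

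**Figure D4:**
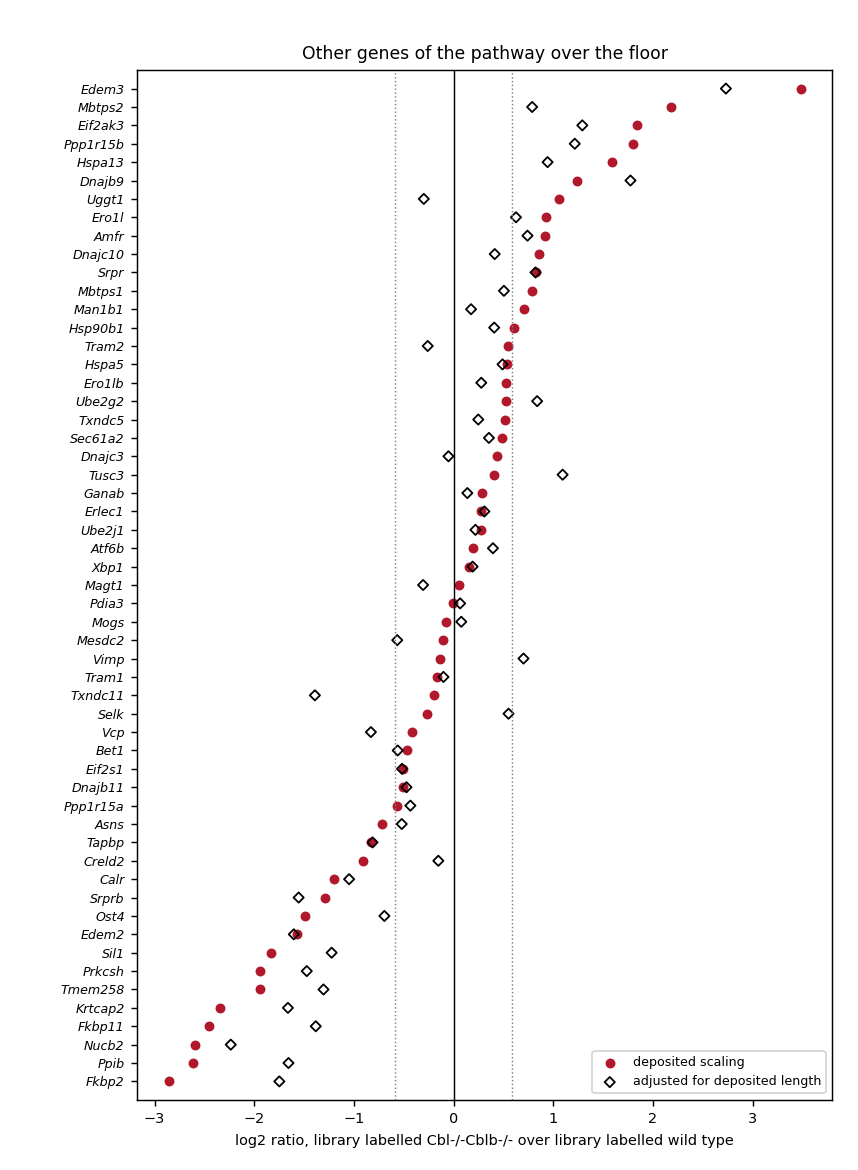
Log2 ratio of the Cbl-/-Cblb-/- labelled library over the wild type labelled library for the 55 other pathway genes over the floor, as filled circles under the deposited scaling and open diamonds after adjustment for deposited length; dotted lines mark 1.5-fold. Edem3 is the highest and Fkbp2 the lowest, and 26 of the 55 lie between the dotted lines.

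Genes that kept a difference of at least 1.5-fold in the same direction as deposited and after each of 3 length adjustments were 5 higher and 7 lower. The adjustments used deposited length, deposited length with GC content and model extension, and principal transcript length. With GC content and model extension 9 of the 45 were higher and 17 lower, beside 26.2% and 30.5% of all genes. With principal transcript length 7 were higher and 13 lower, beside 26.9% and 31.8%. The 5 higher genes (11.1%) were Ssr3, Pdia4, Hyou1, Ern1 and Atf4, and 17.6% of all genes met this rule. Of these Ern1 reached the floor only in the library where it was higher, with 199 normalized reads against 38.6. The 7 lower genes (15.6%) were Sec61a1, Sec61g, Sec62, Dad1, Manf, Ddit3 and Derl2, beside 18.9% of all genes. Both shares were under those of all genes. Within the channel group the rule took in 3 of 5 genes, all lower. In the stress group it took in Ern1 and Atf4, both higher, and Ddit3, lower. In the folding group it took in Pdia4 and Hyou1, both higher, and Manf, lower. Ssr3, Dad1 and Derl2 came from the TRAP, oligosaccharyltransferase and degradation groups. Within the peptidase and signal recognition particle groups it took in 0 of 5 each.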

How the data were processed

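RNA from sorted splenic germinal centre B cells was sequenced as paired reads, 1 library per genotype label. Per the submitters' processing notes, TopHat2 2.0.10, featureCounts and DESeq2 1.4.5 were used with GRCm38; the settings, annotation and strand mode are not given in the sources used here. A single table was deposited with normalized reads (a signal: counts divided by a size factor), FPKM, log2 fold changes, a test statistic (score) and p-values. The table's name refers to HepG2, a human liver cell line. Its columns carry the titles of the B cell libraries and its rows mouse gene IDs, the hepatocyte genes Alb, Fgb and Ttr had 0 reads in both, and it was read as these libraries. The log2 fold changes, score and p-values are the authors' own, and the FPKM values were not used. Whole reads were recovered from the normalized reads by dividing by the step of each library, and 100% of values came out whole within 0.001 read. A pseudocount of 1 was added for log2 ratios, and a gene was kept at 100 normalized reads in the higher library. Exact conditional intervals of read ratios and Wilson or Clopper-Pearson intervals of shares (95%) cover counting error only, since each label has 1 library. No molecular identifiers are described, so reads copied from the same molecule cannot be told apart, and the intervals may be too narrow even for counting error.

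Length adjustment was a quadratic fit over all genes, with deposited length, with length, GC content and model extension, or with principal transcript length (GENCODE M21; added after seeing the data). Scripts ran on Python 3.11.15 with scipy 1.17.1 and edgeR 4.0.16 for TMM factors, and were tested on simulated data. The members, roles and lists were chosen with earlier results of these data known. The genes given in full were the 3 with the largest absolute log2 ratio in each role, all stress sensors and, of the other pathway genes, the 4 highest and 4 lowest with Hspa5, Hsp90b1, Xbp1 and Eif2ak3. The remaining members are given more briefly, and protein identity between paralogs was not analysed here.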

Additional observations from a re-analysis of the deposited data

How the results depend on the processing

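No paired analysis was possible because each label has 1 library, and for the same reason no library could be left out. TMM scaling, pseudocounts of 5 and 0.5, a floor of 20 and no floor gave the same counts of 12 and 19, with a median of -0.31 under TMM and -0.32 under the others. The count of genes at least 1.5-fold higher, 12 as deposited, was 7 when adjusted for deposited length and 7 for principal transcript length. The count at least 1.5-fold lower, 19 as deposited, was 8 when scaled to total reads and 8 with immunoglobulin genes left out of the total. The median of the 45 genes was 0.20 scaled to total reads, -0.47 centred on all genes, 0.19 without immunoglobulin genes, -0.18 adjusted for deposited length, -0.26 with GC content and model extension added and -0.19 for principal transcript length. In this same order of settings the role medians were as follows. The signal recognition particle had -0.0058, -0.67, -0.014, -0.034, 0.19 and 0.30. The translocon channel had -0.53, -1.20, -0.54, -1.23, -1.39 and -1.25. TRAP had 0.15, -0.51, 0.15, -0.58, -0.57 and -0.57. Signal peptidase had -0.19, -0.86, -0.20, -0.58, -1.07 and -0.068. Oligosaccharyltransferase had 0.040, -0.63, 0.032, -0.62, -0.50 and -0.54. Folding had 0.35, -0.31, 0.35, 0.25, 0.30 and 0.078. Stress sensors and factors had 1.69, 1.02, 1.68, 0.81, 0.84 and 0.51. Degradation had 0.54, -0.12, 0.53, 0.067, 0.18 and -0.20. Called genes that changed sign when adjusted for deposited length were Ssr1 (-0.51), Ostc (0.15), Sdf2l1 (0.25) and Derl3 (0.13). With GC content and model extension they were Ssr1 (-0.73), Canx (-0.024), Sdf2l1 (0.72), Derl3 (0.54) and Edem1 (-0.18). With principal transcript length they were Srp19 (0.30), Sec61b (0.041), Ssr1 (-1.20), Sec11c (0.35), Ostc (0.15), Sdf2l1 (0.24), Derl3 (0.089) and Edem1 (-0.50). The cause of these changes was not tested. Depth limits Ern1 most, with 27 reads in the wild type labelled library.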
